A study of Mus musculus with 24 samples.

Results

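A set of 10 genes that code for neuropeptides, or for the granin proteins stored with them, were followed in mouse cortex after stroke: Npy, Sst, Vip, Cck, Penk, Tac1, Crh, Adcyap1, Vgf and Scg2. They were chosen by symbol, and all 10 of 10 were listed in each of 4 expression tables that together name 14769 genes. Male mice of 3 to 4 months, strain C57BL/6N-Cdr1asem1Nikr, had the middle cerebral artery occluded with a monofilament for 1 h (transient middle cerebral artery occlusion, tMCAo) and were sampled after 1 day of reperfusion. Animals labelled WT were wild type and those labelled KO lacked ciRS-7, a circular RNA also named Cdr1as. All 12 animals had the surgery, and none was sham-operated among the samples used here. Each of the 6 animals per genotype gave a cortex sample marked CL and one marked PI, marks that the labels do not spell out, so that 24 libraries form 4 groups of 6, CL WT and PI WT from wild-type and CL KO and PI KO from knockout animals. The study set out to compare expression in WT and KO animals after stroke.

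Neuropeptides are made as larger precursors, cut and modified inside dense-core vesicles, and released more slowly than the fast transmitters, to act on receptors coupled to G proteins. In cortex, Sst, Npy and Vip are made mainly by inhibitory interneurons, of which Sst and Vip mark separate classes, while Cck, Penk, Crh, Adcyap1 and Tac1 are made by various inhibitory or excitatory cells. Granins such as Scg2 and Vgf are packed into the same vesicles and are themselves cut into peptides. Several of these genes are known for transcription that follows neuronal activity through the factor CREB, which binds the cAMP response element, TGACGTCA in its full form or TGACG as its core part.

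Of the 10 genes, 7 had a promoter in the RefSeq table of mouse promoters (build GRCm38.p6), each 250 bases before the gene's start and 50 after. The full element, searched on both strands in the bases before the start, was present in 2 of those 7, Sst and Scg2, and in 1.77% of 27025 gene symbols in the table. The TGACG core, which the full element contains, was present on either strand in 6 of 7 (Sst, Vip, Cck, Tac1, Adcyap1 and Scg2) and in 19.8% of symbols. Npy held neither in this window, and Penk, Crh and Vgf had no entry. Windows of 30 bases around the match are given below for the 4 genes with a change described later and a match, written along the gene's own strand with the matching letters in capitals.
Scg2: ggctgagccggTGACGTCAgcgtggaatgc
Sst: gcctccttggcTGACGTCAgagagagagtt
Vip: ggatcactactgTGACGtctttcggggagc
Cck: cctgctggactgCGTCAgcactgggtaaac
The Scg2 window lies at chr1:79440076-79440105 on the minus strand, with the element 68 to 61 bases before the RefSeq start. That of Sst lies at chr16:23890874-23890903 on the minus strand, 48 to 41 bases before the start. The GENCODE M21 start of these genes lies 94 and 114 bases further upstream, so by that annotation the element falls in the first exon. For Vip the core lies 79 to 75 bases before the start at chr10:5639127-5639156 on the plus strand. For Cck it is read on the opposite strand, 47 to 43 bases before the start at chr9:121495724-121495753. Genes that moved up (Sst, Scg2) and down (Vip, Cck) from CL to PI therefore both hold these letters. A match is a stretch of letters, and binding was not measured.

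The deposited values are log2 CPM, in which the counts of each library are divided by a library size. That size was scaled for each table, so a library has slightly different values in different tables. In each group of 6 the lowest and the highest value of every gene had been drawn in, which leaves them unrecoverable. Levels are therefore given as the second lowest, the median and the second highest library, and changes as differences of the mean of the 4 inner values on the log2 scale. Counts of animals with PI above or below CL use values with the ends drawn in. For an animal at an end of either group, the true sign can differ. Each change comes with its standard error (SE) and an adjusted p, from a two-sided moderated trimmed-mean test built on limma, with Benjamini-Hochberg adjustment over all genes of the table. Genes with an adjusted p under 0.05 are said to be called. The effective read depth recovered from the values, which includes this scaling, was 3.74 to 10.5 megareads (M reads) per library. It was lowest in CL KO animal 6, and the next lowest was in the PI KO group, at 5.27 M reads. Cdr1as, the targeted gene, stood between 2544 and 3900 CPM in WT libraries and at no more than 0.169 CPM in KO libraries, under the 3-read limit of 0.286 to 0.801 CPM, as labelled. All 10 excitatory and all 16 inhibitory neuron markers searched were listed, whereas 5 of 6 choroid plexus genes and the striatal genes Drd2 and Adora2a were not.

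Per kilobase of exon, the most abundant member in CL WT was Cck at 104 CPM per kb, followed by Npy at 65.7 and Scg2 at 58.7, 2 neighbours within their error of each other. Vip followed at 19.7. Penk (9.96), Vgf (8.997) and Sst (8.46 CPM per kb) formed a middle group that could not be ordered within error. Adcyap1 at 3.06, Crh at 2.52 and Tac1 at 1.58 CPM per kb were the scarcest. The trimmed mean of Crh corresponds to 16.8 to 25.1 reads per library and that of Tac1 to 37.2 to 41.0, against 926 to 1220 for Scg2, so the scarce genes carry more counting error. Exon lengths are from GENCODE M21 on GRCm38, which the build named by the submitters, mm10, matches. They join the exons of all annotated transcripts of a gene, and part of the order depends on them. In CPM without length, Tac1 (5.36) stood above Crh (3.33) and Adcyap1 (11.6) above Sst (6.10) in CL WT.

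**Figure D1:**
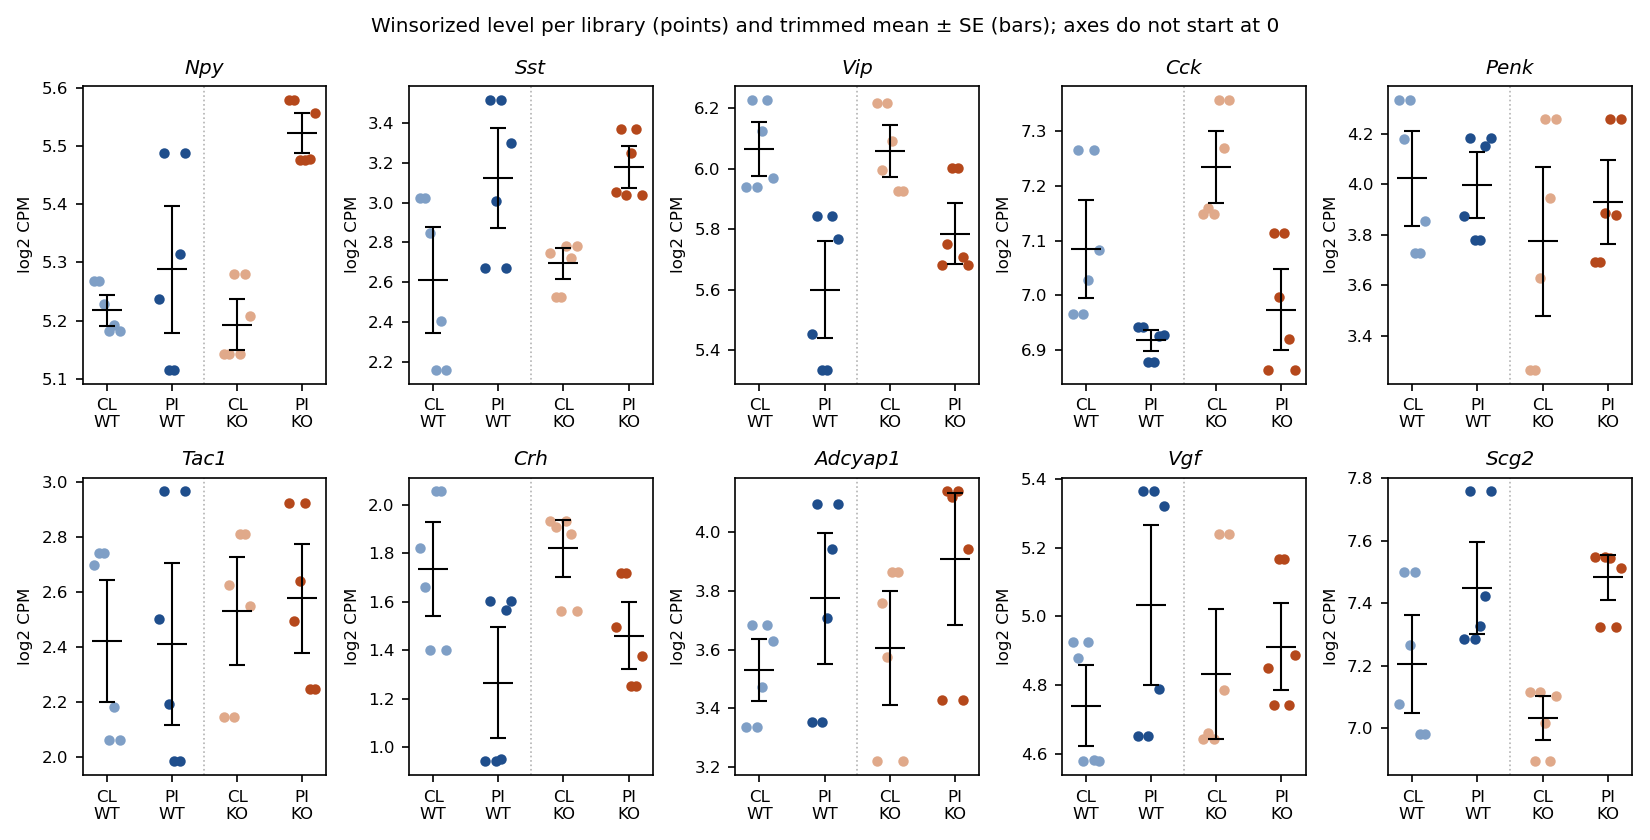
Level of each gene in log2 CPM (vertical axis, not starting at 0) in the 4 groups (horizontal axis); points are libraries with the ends drawn in, and bars are the trimmed mean ± SE (n = 6). Npy and Scg2 of PI KO lie above all recoverable values of CL KO, and Vip of PI WT lies below those of CL WT.

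PI cortex differed from CL cortex in both directions among these genes. In the main test, which does not pair the 2 samples of an animal, Vip fell in WT and Npy and Scg2 rose in KO. Calls with the animal as a block are given further below. With the change averaged over both genotypes, a comparison added after the data had been seen, Sst, Npy and Scg2 rose and Vip and Cck fell, each by at most 0.50 on the log2 scale, while Penk, Tac1, Crh, Adcyap1 and Vgf were not called. In WT, 1 of 10 members was called lower and 0 higher, where 5.40% and 5.20% of all genes were. In KO, 2 of 10 were called higher and 0 lower, against 5.11% and 4.94% of all genes. Over both genotypes 3 were called higher and 2 lower, against 11.4% and 11.8% of all genes. With so few members these counts are given as they stand, and nothing is read from them about the group. In bulk tissue, fewer cells of a type and less RNA per cell cannot be told apart.

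Vip, vasoactive intestinal peptide, is the peptide of a class of interneurons that largely inhibit other interneurons (chromosome 10, 5639218 to 5647617, plus strand). Its level was 61.5, 66.2 and 75.0 CPM in CL WT (second lowest, median, second highest) and 40.3, 48.8 and 57.5 CPM in PI WT. These values do not overlap, and PI was below CL in 6 of 6 animals. The change was −0.47 (SE 0.14, adjusted p = 0.0475, trimmed-mean test on limma), or 0.723-fold with a 95% interval of 0.589 to 0.889. Vip stood at 60.9, 66.0 and 74.5 CPM in CL KO and at 51.3, 53.1 and 64.1 CPM in PI KO, so the KO groups overlap at their edges. The KO change of −0.27 (SE 0.11) was not called, at an adjusted p of 0.132 in the trimmed-mean test on limma, although PI was again below CL in 6 of 6 animals. With the animal as a block, which pairs the PI and the CL library of each mouse, the KO change was called, at an adjusted p of 0.0197 in the paired limma-based test. Averaged over genotypes Vip fell by 0.37 (SE 0.10, adjusted p = 0.00728, trimmed-mean test on limma). The WT call was lost, at an adjusted p of 0.140, when the prior variance was fitted without a trend in limma.

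Cck, cholecystokinin, is made by a class of interneurons and by many cortical excitatory cells (chromosome 9, 121489824 to 121495694, minus strand). In CL WT it measured 125, 133 and 154 CPM, and in PI WT 118, 122 and 123 CPM. PI WT was the tightest of the 4 groups for this gene and lay wholly below CL WT in its recoverable values. The WT change was −0.17 (SE 0.08) and was not called (adjusted p = 0.216, trimmed-mean test on limma). In KO animals Cck measured 142, 149 and 164 CPM in CL and 116, 124 and 138 CPM in PI, again without overlap. That change of −0.26 (SE 0.08) had an adjusted p of 0.0689 in the trimmed-mean test on limma and of 0.0113 with the animal as a block. With the ends drawn in, PI was below CL in 6 of 6 animals of each genotype. In WT animal 1 the PI value was at the high end and the CL value at the low end, so that sign is uncertain. Over both genotypes the fall of 0.21 (SE 0.06) was called (adjusted p = 0.0138, trimmed-mean test on limma), a fold of 0.863 (95% interval 0.791 to 0.941). In WT 2 members, Vip and Cck, had recoverable values in PI wholly below CL and 0 wholly above, where 13.1% and 13.2% of all genes did. In KO this held for 1 member below (Cck) and 3 above (Npy, Sst and Scg2), where 13.4% of all genes did in each direction.

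Sst, somatostatin, marks a class of interneurons that target dendrites (chromosome 16, 23889573 to 23890958, minus strand). It had 4.47, 6.17 and 8.14 CPM in CL WT and 6.37, 8.90 and 11.5 CPM in PI WT. These WT groups overlap widely, and the change of 0.52 (SE 0.27) was not called (adjusted p = 0.285, trimmed-mean test on limma). In KO animals the same gene was tighter, with 5.77, 6.65 and 6.88 CPM in CL and 8.21, 8.88 and 10.3 CPM in PI, and the recoverable values do not overlap. That change was of like size, 0.48 (SE 0.15), with an adjusted p of 0.0549 in the trimmed-mean test on limma and of 0.0464 with the animal as a block. PI was above CL in 5 of 6 WT and 6 of 6 KO animals. Over both genotypes Sst rose by 0.50 (SE 0.17, adjusted p = 0.0366, trimmed-mean test on limma), 1.41-fold with a 95% interval of 1.11 to 1.80, but without a trend in the prior variance the adjusted p of this limma-based test was 0.0642. Sst and Vip, which mark separate interneuron classes, thus went in opposite directions on the PI side.

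Npy, neuropeptide Y, is made by several interneuron types (chromosome 6, 49822710 to 49829507, plus strand). CL libraries of either genotype were tight, with 36.3, 37.0 and 38.5 CPM in WT and 35.3, 36.1 and 38.9 CPM in KO. PI WT spread to both sides of these, at 34.7, 38.7 and 44.9 CPM, whereas PI KO lay wholly above CL KO, at 44.5, 45.8 and 47.8 CPM. The WT change was 0.07 (SE 0.10, adjusted p = 0.725, trimmed-mean test on limma), with PI above CL in 3 of 6 animals. In KO Npy rose by 0.33 (SE 0.07, adjusted p = 0.0139, trimmed-mean test on limma), 1.26-fold with a 95% interval of 1.13 to 1.40, in 6 of 6 animals. The average over genotypes, a rise of 0.20 (SE 0.06, adjusted p = 0.0230, trimmed-mean test on limma), is the mean of these 2 changes. Its adjusted p was 0.0541 in the same limma-based test once the median gene of every group was set to the same level.

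Scg2, secretogranin II, is a granin of dense-core vesicles and the precursor of secretoneurin (chromosome 1, 79434669 to 79440120, minus strand). In CL KO it measured 119, 133 and 139 CPM and in PI KO 160.1, 185 and 187 CPM, with every recoverable PI value above every CL value. The rise was 0.45 (SE 0.08, adjusted p = 0.00524, trimmed-mean test on limma), or 1.37-fold with a 95% interval of 1.205 to 1.55, and was seen in 6 of 6 animals. In WT it measured 126, 144 and 181 CPM in CL and 156, 166 and 217 CPM in PI, which overlap. The WT change of 0.24 (SE 0.15) was not called (adjusted p = 0.381, trimmed-mean test on limma), with PI above CL in 5 of 6 animals, but it was with the animal as a block (adjusted p = 0.0338, paired limma-based test). Without WT animal 6 the WT difference was 0.15 on the log2 scale. Over both genotypes Scg2 rose by 0.35 (SE 0.10, adjusted p = 0.0129, trimmed-mean test on limma).

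With the animal as a block, 2 of 10 members were called in WT (Vip, Scg2), 5 of 10 in KO (Sst, Npy, Vip, Cck, Scg2) and the same 5 over both genotypes. The share of all genes called by that test in either direction was 15.7% in WT, 15.0% in KO and 24.9% over both.

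**Figure D2:**
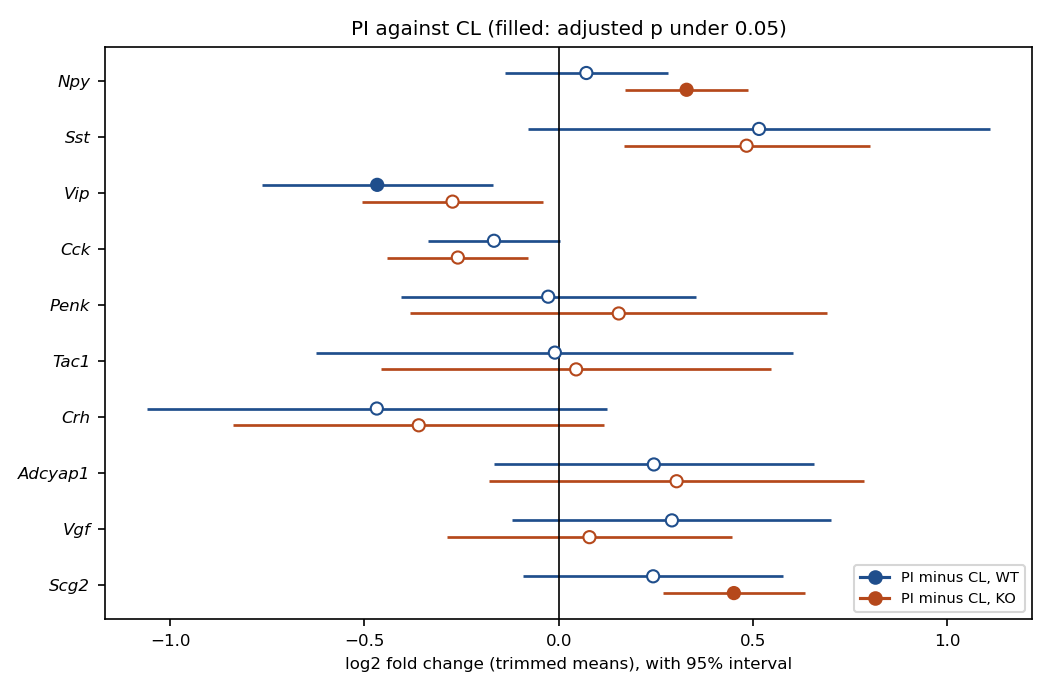
Change from CL to PI of each gene on the log2 scale (horizontal axis) with its 95% interval, in WT and in KO animals (n = 6 per group). Points are filled where the gene was called by the main, unpaired test. The filled points are Vip in WT and Npy and Scg2 in KO.

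The other 5 genes were not called in either genotype or over both. Crh, corticotropin-releasing hormone (chromosome 3, 19693401 to 19695396, minus strand), was lower in PI by point estimate, with 2.64, 3.35 and 4.16 CPM in CL WT and 1.92, 2.40 and 3.04 CPM in PI WT. In KO it had 2.95, 3.72 and 3.82 CPM in CL and 2.38, 2.71 and 3.29 CPM in PI. The average change of Crh was −0.41 (SE 0.18, adjusted p = 0.102, trimmed-mean test on limma), about as large as that of Vip but with wider error, and PI was below CL in 5 of 6 animals of each genotype.

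Adcyap1, which codes for the peptide PACAP (chromosome 17, 93199017 to 93206537, plus strand), had 10.1, 11.7 and 12.9 CPM in CL WT and 10.2, 14.2 and 17.1 CPM in PI WT. In KO the values were 9.31, 12.7 and 14.6 CPM in CL and 10.8, 16.4 and 17.6 CPM in PI. PI reached higher than CL in both genotypes, and the groups overlapped. With the ends drawn in, PI was above CL in 6 of 6 WT and 5 of 6 KO animals, in WT by as little as 0.02 on the log2 scale. The average change of Adcyap1 was 0.27 (SE 0.16, adjusted p = 0.2497, trimmed-mean test on limma).

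Vgf, a granin-like protein cut into several peptides (chromosome 5, 137026392 to 137033351, plus strand), measured 23.9, 26.5 and 30.4 CPM in CL WT and 25.2, 33.3 and 41.2 CPM in PI WT. In KO it measured 25.0, 26.4 and 37.8 CPM in CL and 26.8, 29.2 and 35.9 CPM in PI. All 4 groups overlap, and the average change of Vgf was 0.19 (SE 0.14, adjusted p = 0.389, trimmed-mean test on limma).

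Penk, the enkephalin precursor (chromosome 4, 4133531 to 4138819, minus strand), varied more among animals than between sides. It had 13.2, 16.2 and 20.2 CPM in CL WT and 13.7, 16.1 and 18.2 CPM in PI WT. In KO it had 9.60, 13.8 and 19.2 CPM in CL and 12.9, 14.7 and 19.1 CPM in PI. KO animals 1 and 2 were at the low end and KO animals 4 and 6 at the high end in both samples. The change of Penk was −0.03 (SE 0.18) in WT and 0.15 (SE 0.25) in KO. Penk shares 233 bases of exon with A830012C17Rik on the opposite strand, and whether the counting used strand is not given in the sources used here.

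Tac1, the precursor of substance P and neurokinin A (chromosome 6, 7554879 to 7565834, plus strand), was near the same median in every group. It had 4.18, 5.43 and 6.69 CPM in CL WT, and 3.95, 5.09 and 7.83 CPM in PI WT. In KO it had 4.42, 6.01 and 7.02 CPM in CL and 4.75, 5.93 and 7.60 CPM in PI. The changes of Tac1 were −0.01 (SE 0.28) in WT and 0.04 (SE 0.23) in KO, with 95% intervals of −0.62 to 0.60 and −0.46 to 0.55, so changes of about 0.6 on the log2 scale are within the error.

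Signs agreed between WT and KO for 8 of 10 members, against 10086 of 14211 genes in both tables. The members' median change was 0.03 in WT and 0.12 in KO, against medians over all genes of 0.01 and −0.00 on the log2 scale.

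The question the study posed was whether KO differed from WT. Among PI samples no member was called, against 0.0208% of all genes (3 genes). At an unadjusted p under 0.05 in the same limma-based test, 1 of 10 members differed, Npy, against 5.75% of all genes, a share near that background. In the table that scaled the 2 PI groups together, Npy was 0.24 higher in KO (SE 0.10, unadjusted p = 0.0315, adjusted p = 0.854, trimmed-mean test on limma), 1.18-fold with a 95% interval of 1.02 to 1.37. The other 9 changes ran from −0.12 (Vgf) to 0.20 (Crh), and both ends moved with the animals left out. The WT and the KO animal of the same number were left out together. Vgf stood at 0.01 without the animals numbered 2 and at −0.22 without those numbered 3, and Crh at 0.09 without those numbered 3 and at 0.31 without those numbered 5.

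Among CL samples no member was called, against 0.0279% of all genes (4 genes), and none had an unadjusted p under 0.05, against 5.73% of all genes. The differences in CL ran from −0.24 (Penk, SE 0.25) to 0.16 (Cck, SE 0.09), with Scg2 at −0.17 (SE 0.13). That of Penk moved with the animals left out. It was −0.09 without the WT and KO animals numbered 1, −0.12 without those numbered 2 and −0.41 without those numbered 4. Intervals show what the data leave possible. For Cck the 95% interval of KO minus WT was −0.10 to 0.22 in PI and −0.04 to 0.35 in CL, and for Vip −0.12 to 0.50 in PI and −0.22 to 0.22 in CL. For the scarce Crh it was −0.39 to 0.79 in PI and −0.40 to 0.58 in CL. These intervals do not show that the genotypes were alike.

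An interaction term set the KO change between sides against the WT change and called 0 of 14211 genes (0.00%) and so no member. At an unadjusted p under 0.05, 646 genes (4.55%) passed in the trimmed-mean test. Limma on the values as deposited called 1940 genes, but the spread of those values is understated because their ends are drawn in. Npy alone of the 10 passed the unadjusted threshold, with a KO change larger by 0.26 (SE 0.12, unadjusted p = 0.0494, adjusted p = 0.992, trimmed-mean test on limma). PI KO libraries enter both this difference and the comparison of PI KO with PI WT. The remaining interactions ran from −0.21 (Vgf) to 0.21 (Scg2), and that of Vip, called in WT and not in KO, was 0.19 (SE 0.19, 95% interval −0.20 to 0.59).

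**Figure D3:**
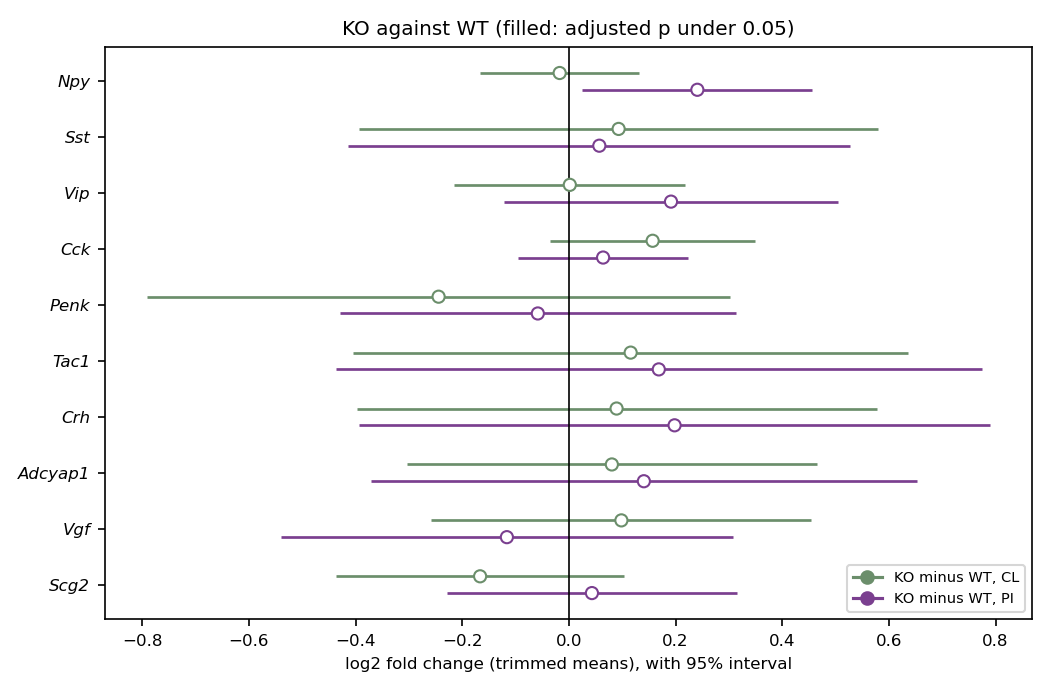
Difference of KO from WT of each gene on the log2 scale (horizontal axis) with its 95% interval, in CL and in PI cortex (n = 6 per group); filled points would be called, and none is. The interval of Npy in PI, from 0.03 to 0.46, is the one of the 20 that leaves out 0.

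Several genes of the machinery that makes and releases peptides fell in PI. Of 17 genes for precursor processing and dense-core vesicle release, 16 were listed. In WT 6 fell and 1 rose, where 5.40% and 5.20% of all genes did, and in KO 5 fell and 0 rose, where 4.94% and 5.11% did. The median changes of the list were −0.13 and −0.16 on the log2 scale. Pcsk5, another convertase, was the one that rose in WT, by 0.51 (SE 0.14, adjusted p = 0.0337, trimmed-mean test on limma). Cadps2 and Cadps, which prime dense-core vesicles for release, fell by 0.87 (SE 0.07) and 0.36 (SE 0.07) in WT, at adjusted p of 1.65e-05 and 0.00453 in the trimmed-mean test on limma. In KO they fell by 0.77 (SE 0.10) and 0.38 (SE 0.06), at adjusted p of 0.000708 and 0.00114 in the same limma-based test. Pcsk2, a convertase that cuts peptide precursors, fell by 0.27 (SE 0.05) in WT and by 0.25 (SE 0.05) in KO. Ptprn2, a protein of the vesicle membrane, fell by 0.28 (SE 0.06) and 0.36 (SE 0.06). These falls stood beside rises of Sst, Npy and Scg2 over both genotypes.

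Granins outside the 10 genes also split. Chga, chromogranin A, rose by 0.51 in WT (SE 0.10, adjusted p = 0.00532, trimmed-mean test on limma) and by 0.44 in KO (SE 0.09, adjusted p = 0.0113, trimmed-mean test on limma). Scg5, a chaperone of Pcsk2, fell by 0.44 in WT (SE 0.06, adjusted p = 0.000665, trimmed-mean test on limma). Of 6 further granins and related genes (Chga, Chgb, Scg3, Scg5, Pcsk1n and Gnas), 1 rose and 1 fell in WT, and 1 rose and 0 fell in KO. Over all genes 5.20% rose and 5.40% fell in WT, and 5.11% rose and 4.94% fell in KO. In KO the lowest change of the 6 was −0.30 and was not called. The interaction had an unadjusted p under 0.05 for 0 of the 6 in the limma-based test.

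Of 21 peptide receptors and binding proteins, 16 were listed. Of these, 1 was called lower and 0 higher in WT, where 5.40% and 5.20% of all genes were. In KO 0 were called lower and 1 higher, where 4.94% and 5.11% of all genes were. Npy1r, a receptor for Npy, fell by 0.30 in WT (SE 0.09, adjusted p = 0.0483, trimmed-mean test on limma), the one receptor called there. Crhbp, which binds Crh outside cells, rose by 0.72 in KO (SE 0.19, adjusted p = 0.0327, trimmed-mean test on limma), the one gene of the list called there. In WT Crhbp changed by 0.12 (SE 0.14), and the interaction of 0.60 (SE 0.25) had an adjusted p of 0.992 in the limma-based test. Of 18 other peptide precursors, 8 were listed in WT and 7 in KO, and 0 were called in either. Their unadjusted p was under 0.05 for 3 of 8 in WT, where 3469 of all 14489 genes passed, and for 0 of 7 in KO, where 3566 of 14338 did.

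Markers of neurons and of other cell types differed between the sides too. Of 8 general neuron markers, 3 fell by the test in each genotype, Nefl, Snap25 and Syt1, where 5.40% (WT) and 4.94% (KO) of all genes did. All 8 were lower in PI in both genotypes. Their summed level was 8084 to 8676 CPM in CL WT against 6866 to 7632 CPM in PI WT, and 7844 to 8434 CPM in CL KO against 6584 to 7409 CPM in PI KO. The 16 inhibitory neuron markers summed to 1375 to 1492 CPM in CL WT and 1167 to 1329.7 CPM in PI WT, and to 1395 to 1449 CPM in CL KO and 1259 to 1325 CPM in PI KO. Of these, Lamp5 fell by 1.21 (SE 0.08) in WT and 1.03 (SE 0.08) in KO, Erbb4 fell in both, and Gad2 rose by 0.38 (SE 0.07) in KO. The 6 listed striatal genes summed to 267 to 348 CPM in CL WT and 216 to 256 CPM in PI WT, and to 260.4 to 299 CPM in CL KO and 221 to 256 CPM in PI KO. These 6 did not move as one, since 3 were higher and 3 lower in PI in each genotype, with Pde10a called lower and Ppp1r1b called higher in WT. The 6 astrocyte markers were lower in sum, at 7204 to 7689 CPM in CL WT and 6419 to 6928 CPM in PI WT, and at 7245 to 7862 CPM in CL KO and 6249.9 to 6996 CPM in PI KO. A sum follows its most abundant genes. By gene the astrocyte markers split, with 3 higher and 3 lower in PI in each genotype and median changes of 0.08 in WT and 0.05 in KO. Gfap rose by 1.88 (SE 0.11) in WT and 2.19 (SE 0.16) in KO. The 6 microglia markers summed to 158 to 169.95 CPM in CL WT and 164 to 188 CPM in PI WT, and to 167 to 181 CPM in CL KO and 175 to 221 CPM in PI KO. By gene, 4 microglia markers were higher and 2 lower in PI in each genotype. The part of these shifts in the peptide values was not tested. Vip and Cck moved in the direction of the summed neuron markers, and Sst, Npy and Scg2 against it.

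Activity-induced genes, with which several members are known to respond, went both ways, with more of them lower in PI. Of 12, 4 were higher and 8 lower in PI in each genotype, with medians of −0.36 in WT and −0.45 in KO. By the test 1 of 12 rose in WT (Nptx2, by 1.19, SE 0.12) and 3 fell (Egr1, Nr4a1 and Arc), and in KO Nptx2 and Crem rose while Egr2 and Nr4a1 fell. Over all genes 5.20% rose and 5.40% fell in WT, and 5.11% rose and 4.94% fell in KO. In PI, 10 of 11 listed activity-induced genes were higher in KO than in WT, with a median of 0.37. At an unadjusted p under 0.05 in the limma-based test 4 passed, against 5.75% of all genes. In CL, 11 of 12 were higher with a median of 0.52, and 9 had an unadjusted p under 0.05, against 5.73% of all genes. By the trimmed-mean test on limma 0 of the list were called in either. Of the members, 8 of 10 had a positive difference of KO from WT in PI, with a median of 0.10, and 1 passed at the unadjusted threshold, while in CL 7 of 10 did, with a median of 0.08, and 0 passed. The 2 lists were not tested against each other.

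Some libraries stood high or low for most of the 10 genes at once. PI WT animal 2 was at the high end for 10 of 10 members and PI WT animal 6 for 6, while PI WT animal 3 was at the low end for 8. In CL WT, animal 2 was at the high end for 7 and animal 6 at the low end for 6. KO animal 4 was at the high end for 7 members in CL and for 6 in PI. The 10 genes together summed to 412 to 541 CPM in PI WT, 423 to 527 CPM in CL WT, 448 to 526 CPM in PI KO and 425 to 486 CPM in CL KO. Without animal 2 the WT change of Vip was −0.50 on the log2 scale, and without KO animal 6, whose CL library was the shallowest, the KO changes of Npy and Scg2 were 0.32 and 0.45.

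**Figure D4:**
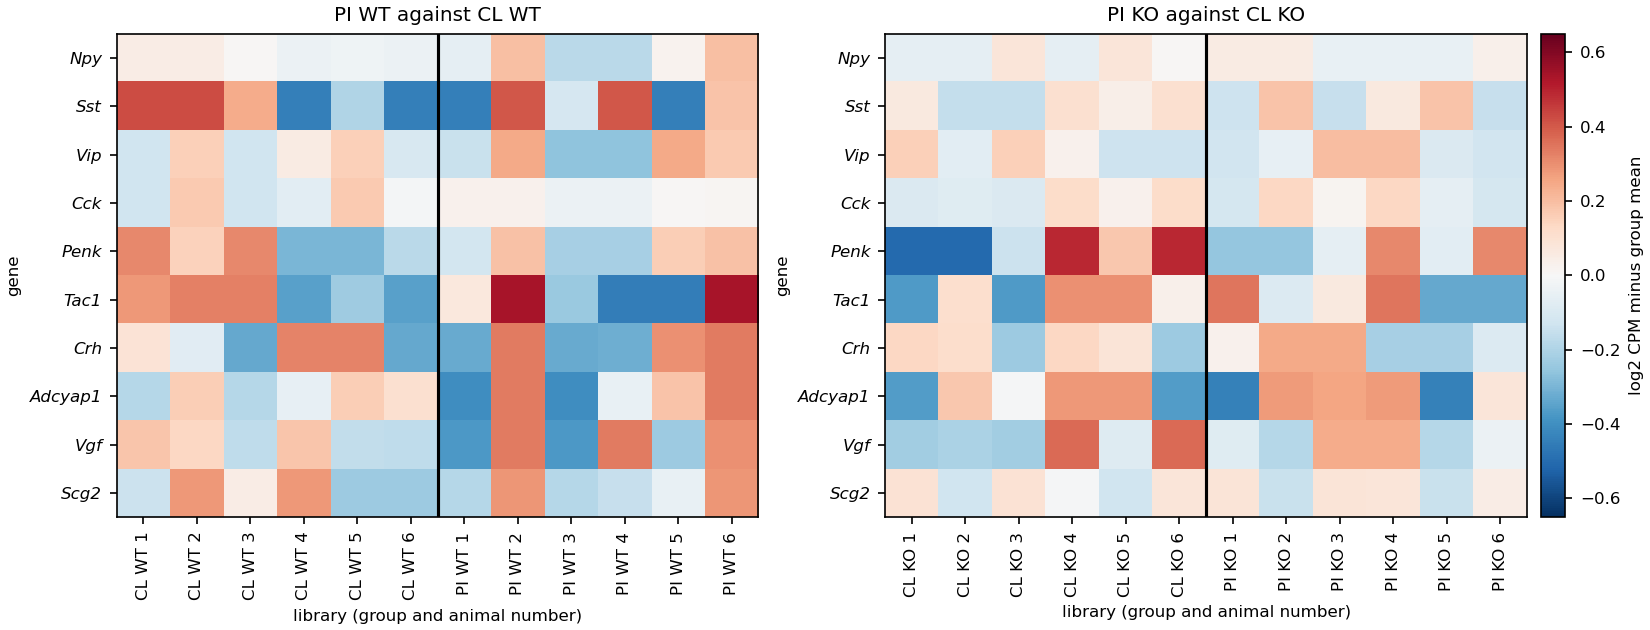
Deviation of each library (horizontal axis, group and animal number) from its group mean in log2 CPM (colour) for each gene (vertical axis), with the ends of each group drawn in. PI WT 2 is above its group mean for 10 of 10 genes.

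Correlations over the 12 libraries of a table, after centring on the group means, describe this further. Libraries share depth and scaling, so no test is given. Of 45 pairs of members, 40 had a positive r in WT (median 0.43) and 25 in KO (median 0.08). Scg2 and Vip were the one pair with r over 0.5 in both, at 0.59 and 0.51. The 3 genes of the whole table most correlated with each member were found in WT, where their r was 0.87 to 0.98, and looked up in KO. Of these 30 genes 5 had an r over 0.5 in KO, and the median was 0.05, so most of these likenesses were not seen in the second set of animals. The pair with the highest r in KO was Adcyap1 with Pam, the enzyme that amidates peptides, with r of 0.98 in WT and 0.70 in KO. Vgf with Cbarp had 0.95 and 0.69, Cck with Abcf2 0.96 and 0.60, Vgf with Prkce 0.93 and 0.55, and Crh with Bloc1s6 0.91 and 0.54. Among all genes searched, the r in KO of these 5 stood between percentile 93.1 (Prkce) and 97.4 (Cbarp) for the same member. Many other genes thus had as high an r in KO, and the 5 are the highest of 30. Scg2 was most like Crhbp in WT, at 0.97, but had −0.17 with it in KO.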

How the data were processed

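Total RNA depleted of ribosomal RNA was sequenced with the CORALL kit, per the labels' protocols. The deposited values are log2 CPM in 4 tables of 2 groups each, per the file headers, each scaled separately. The build mm10 is named in the submitters' processing notes, while the aligner, counting and scaling are not given in the sources used here. In every gene and group of 6 the 2 lowest and the 2 highest deposited log2 values were tied at the quartiles (Winsorized), a step no label records. The 4 inner values were solved from the ties (weights 0.75 and 0.25), after which 76.5% to 88.1% of tied low values were whole reads within 0.03 read, against 8.84% to 13.5% as deposited. Since 4 of 6 values are not reads as deposited, no count test was run.

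Trimmed means were tested with Winsorized errors (6 degrees of freedom for 2 groups, 12 for 4) moderated by limma 3.58.1 in R 4.3.3 with a trend. On simulated data for PI WT against CL WT (14489 genes), 5.50% of unchanged genes had p under 0.05, and 59.4%, 86.1% and 97.7% of changes of 0.5, 1 and 2 were called. The simulation drew independent normal noise for each gene and library and changed few genes. It held no effects shared by a library and no pairing, so rates in the real data can differ. The called shares are averages over genes of all levels and spreads. CL and PI libraries with the same number come from the same animal by their labels. As a check, the correlation of their deviations was −0.05 to 0.23 in WT and −0.03 to 0.22 in KO. The highest r of a PI library with a CL library of another number was 0.06 to 0.19 in WT and 0.03 to 0.20 in KO. It exceeded that with the own number for WT animals 4 and 6 and KO animals 5 and 6. The pairing therefore rests on the labels. For PI against CL and for the interaction, the block pairs the 2 libraries of each mouse, a pairing that the main test leaves out. WT and KO animals with the same number are different mice, so for KO against WT the block is only an alternative. The members and the lists were chosen with earlier results of these data known. Named were all 10 members, the called genes of the peptide lists (at most 4 per list and comparison) and, per member, the 3 genes most correlated in WT with a mean of at least 3 log2 CPM; markers are given for neurons, inhibitory neurons, striatum, astrocytes, microglia and activity-induced genes, and excitatory neuron and choroid plexus genes served to check the tissue. All columns matched a sample (0 unused).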

Additional observations from a re-analysis of the deposited data

How the results depend on the processing

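The 6 comparisons were recomputed under 6 alternatives each. A minimum mean of 0 log2 CPM and log2(CPM + 1) changed no member's call or direction. Limma on the deposited values, whose spread is understated by construction, called 6459 genes in PI WT against CL WT, 6666 in PI KO against CL KO, 2388 in PI KO against PI WT, 2311 in CL KO against CL WT, 1940 in the interaction and 7873 over both genotypes, and called 5 members in WT, 6 in KO, 1 in PI KO against PI WT and 1 in the interaction. A prior without a trend called 1015 genes in WT and 739 in KO, and 0 members in WT. The replicate block gave calls for 2 members in WT, for 5 in KO, and for 6, 85 and 1 genes in PI KO against PI WT, CL KO against CL WT and the interaction. In PI KO against PI WT and in CL KO against CL WT the blocked animals share only a number. In the interaction the block pairs the PI and the CL library of each mouse. The block changed no other call of a member. Centring each group on its median gene turned Tac1 over both genotypes to −0.0156 on the log2 scale, called Cck in KO (adjusted p = 0.0397, limma-based test), and moved the share of higher calls from 49.1% to 37.7% in WT, from 50.8% to 36.7% in KO and from 49.0% to 36.9% over both. Leaving out each animal, as a difference without a test, gave −0.53 to −0.41 for Vip in WT, 0.30 to 0.35 for Npy in KO and 0.43 to 0.45 for Scg2 in KO. In all such differences the remaining values were averaged with the ends still drawn in over all 6 libraries. They can therefore understate the weight of a single animal. Depth limits Crh and Tac1 most. No value could be examined for a stray library, since the end values of each group are tied.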
